A study of Rattus norvegicus with 15 samples.

Results

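H9c2 cells pretreated with danshen injection and then given doxorubicin (DSI+DOX) were compared with control cells (con), gene by gene. The aim was to describe what remained different from control in spite of the pretreatment. The DSI+DOX group (n = 3 libraries) received 50 µL of danshen injection, diluted 1 in 20, 4 h before 2 µM doxorubicin, and its cells were collected 24 h after doxorubicin. The DOX group (n = 3) received 2 µM doxorubicin with no pretreatment and was harvested at 24 h; it is set beside the comparison to show what doxorubicin alone gave. The con group (n = 3) received phosphate-buffered saline. All groups were grown in high-glucose medium with serum; the labels give the con cells as WT and name the treatment in place of a genotype for the others. No group received danshen injection without doxorubicin, so the part of a value that belongs to danshen injection itself cannot be told apart. The series holds 15 libraries in 5 groups of 3; the other groups are not described here. Genes were kept if they reached 1 FPKM (fragments scaled to transcript length and to the library's mapped fragments) in at least 3 of the 6 DSI+DOX and con libraries, which left 10974 of 19328 entries. Just inside this minimum, 196 genes reached it in exactly 3 libraries, with a median of their mean level of 1.07 FPKM; just outside, 156 genes reached it in exactly 2, with a median of 0.846 FPKM.

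Doxorubicin is an anthracycline that traps topoisomerase II on DNA and causes strand breaks, and its use in cancer is limited by damage to the heart. DNA breaks activate p53, which raises cell cycle inhibitors and its own antagonist Mdm2, and proliferating cells then shut down the transcription of S phase and mitosis genes. Danshen injection is prepared from the root of Salvia miltiorrhiza. H9c2 is a line from embryonic rat heart that grows as myoblasts and can form multinucleated muscle fibres, a process run by the myogenic factors Myod1 and Myog.

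The label calls the cells cardiomyocytes, but most defining markers of working cardiomyocytes were near 0. Of 10 markers of working cardiomyocytes with an entry, 8 stayed under 1 FPKM in all 6 libraries, among them the heavy chains Myh6 and Myh7, the troponin Tnni3 and the ryanodine receptor Ryr2. Nppa was listed at 0 in all 6. Nkx2-5 was above that level, at 5.72, 6.21 and 8.33 FPKM in DSI+DOX and 5.85, 5.05 and 4.57 FPKM in con. It was 1 of 2 such markers that were tested. The other was called lower than con, with a log2 difference of -0.45, and was called lower without library 3 too. Myoblast markers were present: Cdh15 stood at 45.9, 48.0 and 52.0 FPKM in DSI+DOX and 59.0, 60.3 and 58.3 FPKM in con. The cells are therefore called H9c2 cells here. All 6 endothelial markers with an entry, 6 of 7 macrophage markers and 4 of 5 epithelial markers stayed under 1 FPKM in the same 6 libraries. Of 8 fibroblast markers, 5 did so, with Dcn and Tcf21 at 0. Smooth muscle markers were present too: all 7 were tested, and 0 stayed under 1 FPKM. Their summed level was 3990, 4220 and 4890 FPKM in DSI+DOX and 4260, 4510 and 4230 FPKM in con. The myoblast markers with an entry summed to 237, 230 and 184 FPKM in DSI+DOX and 302, 303 and 305 FPKM in con. Des is on both lists.

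The third DSI+DOX library stood apart. Its FPKM values summed to 548227, against 433383 to 468608 in the other 14 libraries, and 10545 entries reached 1 FPKM in it, against 10851 to 11057. Across genes its log2 values correlated at 0.951 and 0.962 with DSI+DOX libraries 1 and 2, which correlated at 0.995 with each other. Set against the mean of those libraries, it was over 2-fold lower in 874 genes and over 2-fold higher in 94, with a median deviation of -0.13 on the log2 scale. Results are therefore given with and without it. Read depth is unknown because the values are FPKM, and the labels do not say whether the libraries of a group came from separate cultures, so the spread behind the p-values may be technical only.

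In DSI+DOX, 4631 of 10974 genes differed from con at a Benjamini-Hochberg adjusted p under 0.05 in limma, which is 42.2% of the genes tested. Of these, 2228 were higher (20.3%) and 2403 lower (21.9%). Most differences were small: 399 genes passed with at least a 2-fold difference (3.64%), 136 of them higher (1.24%) and 263 lower (2.4%). Without DSI+DOX library 3, 4499 genes passed (41.0%), 2353 higher (21.4%) and 2146 lower (19.6%), and 264 passed with at least 2-fold (2.41%), 111 higher (1.01%) and 153 lower (1.39%). Of the 2228 genes called higher with all libraries, 1905 were also called higher without library 3, as were 1942 of the 2403 lower genes, and 0 were called in the opposite direction. In all 3 DSI+DOX libraries 2608 genes lay above all 3 con libraries (23.8%) and 3086 below (28.1%). The median log2 difference over all genes was -0.05 with all libraries and 0.00888 without library 3. DOX against con, which shares the con libraries, gave 4228 genes (38.5%), 2650 higher (24.1%) and 1578 lower (14.4%). DSI+DOX against DOX gave 789 genes (7.19%), 154 higher (1.4%) and 635 lower (5.79%), and 1252 without library 3 (11.4%). All folds below are differences of log2(FPKM + 1), in which low genes change by less than their FPKM ratio, and adjusted p-values are from limma over all 10974 genes. Some genes met the minimum of 1 FPKM in 3 libraries through a single group. They include Lcn3, Rbp2, Cacna1s and Mmp2, through DSI+DOX, and Mymx and Ass1, through con. The minimum itself favours a difference for such genes, so their p-values are a description only. Differences from DOX include library 3 unless stated otherwise. Counts within gene lists are to be read against the shares of all genes called, 20.3% higher and 21.9% lower.

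The genes that stayed highest above control were led by Lcn3, which encodes a secreted lipocalin. Lcn3 had 14.3, 16.9 and 29.8 FPKM in DSI+DOX, 50.4, 45.1 and 44.7 FPKM in DOX, and 0.599, 0.735 and 0 FPKM in con. The 3 groups did not overlap, and DSI+DOX lay between DOX and con. Its log2 difference from con was 3.86 ± 0.23 (SE; adjusted p = 5.32e-08), and 3.56 without library 3. Rbp2, an intracellular retinol-binding protein, had 6.42, 5.9 and 9.25 FPKM in DSI+DOX, 14.5, 13.0 and 10.5 FPKM in DOX, and 0.242, 0.136 and 0.37 FPKM in con. This was a log2 difference of 2.70 ± 0.17 (adjusted p = 1.26e-07), 2.52 without library 3, and again the DSI+DOX libraries lay below the DOX ones. Cox6a2, the heart and skeletal muscle form of a cytochrome c oxidase subunit, had 17.7, 20.4 and 32.2 FPKM in DSI+DOX, 26.1, 21.9 and 23.8 FPKM in DOX, and 3.01, 3.52 and 3.41 FPKM in con. DSI+DOX and DOX overlapped for this gene, and the log2 difference from con was 2.46 ± 0.17 (adjusted p = 2.17e-07), 2.22 without library 3. Pinlyp, LOC108348061 and Ifi27l2b were also among the 8 largest rises, with log2 differences of 2.52, 2.48 and 2.42 from con in DSI+DOX (2.29, 2.31 and 2.11 without library 3), and their differences from DOX of -0.06, 0.17 and -0.01 did not pass.

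**Figure D1:**
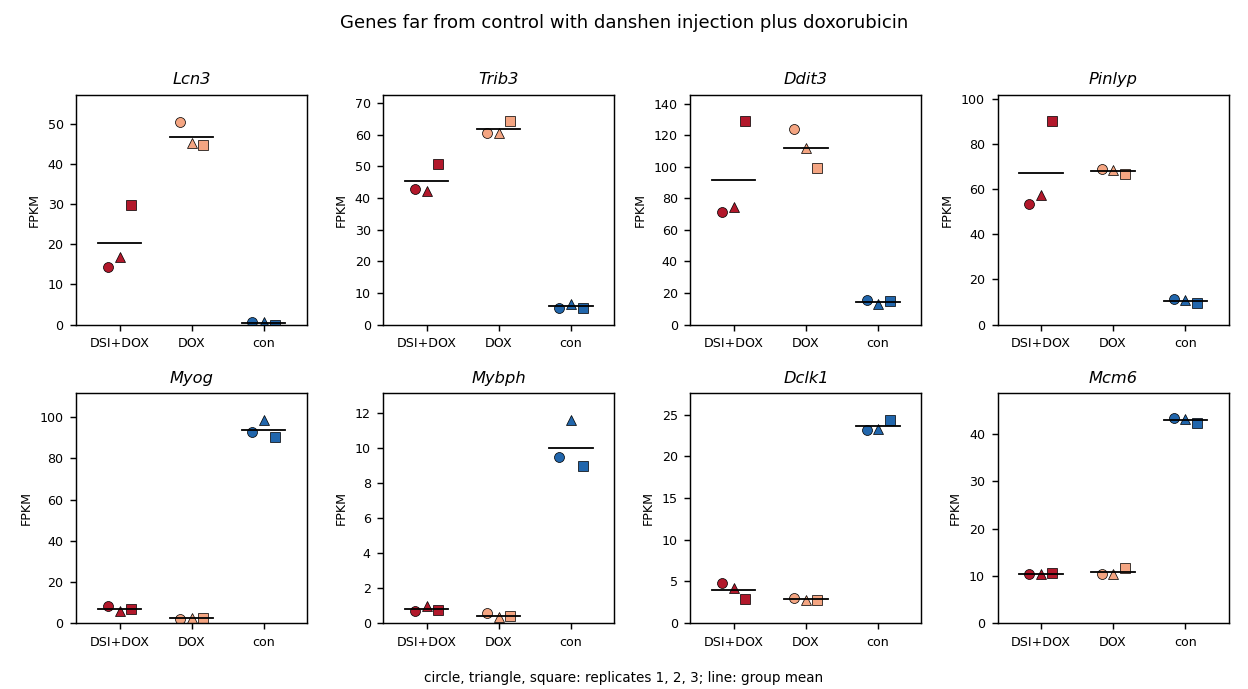
Level in FPKM of 8 genes far from control in DSI+DOX, DOX and con, with a point per library (circle, triangle and square for libraries 1, 2 and 3) and a line at each group's mean; each axis starts at 0. Lcn3, Trib3, Ddit3 and Pinlyp lie above con and Myog, Mybph, Dclk1 and Mcm6 below con in all 3 DSI+DOX libraries.

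Among the largest falls were also Aqp1, a water channel, Dclk1, a microtubule-associated kinase, and Ass1, which makes the precursor of arginine. Dclk1 had 4.87, 4.27 and 2.89 FPKM in DSI+DOX, 3.01, 2.8 and 2.76 FPKM in DOX, and 23.1, 23.3 and 24.4 FPKM in con (log2 difference from con -2.32 ± 0.12; adjusted p = 1.5e-08). Its library 3 alone lay within the DOX range. Without that library its difference was -2.14. Aqp1 and Ass1 had log2 differences of -2.33 and -2.0 from con (-2.32 and -2.09 without library 3), and their DSI+DOX libraries overlapped DOX.

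Muscle genes were lower in part. Myog, the transcription factor that starts myoblast differentiation, had the largest fall among the named genes. It had 8.1, 6.04 and 6.68 FPKM in DSI+DOX, 2.22, 2.6 and 2.31 FPKM in DOX, and 92.8, 98.4 and 90.5 FPKM in con. DSI+DOX lay far below con in every library and above every DOX library. The log2 difference was -3.59 ± 0.11 from con (adjusted p = 3.49e-10; -3.57 without library 3) and 1.23 from DOX (adjusted p = 9.95e-05; 1.25 without library 3). In such bulk libraries fewer differentiating cells and less transcript per cell cannot be told apart. Myod1, which commits cells to the muscle lineage upstream of Myog, did not pass as lower. It had 22.8, 23.5 and 18.5 FPKM in DSI+DOX, 19.3, 18.8 and 20.7 FPKM in DOX, and 17.4, 18.7 and 18.4 FPKM in con. DSI+DOX overlapped con through library 3. Its difference from con was 0.23 (adjusted p = 0.0589), and it passed as a rise of 0.34 only without that library (adjusted p = 0.00285). Mymx, the micropeptide that drives myoblast fusion, had 0.822, 0.638 and 0.851 FPKM in DSI+DOX, 0.281, 1.1 and 0.54 FPKM in DOX, and 2.69, 5.44 and 3.89 FPKM in con, a log2 difference of -1.46 ± 0.28 from con (adjusted p = 0.00116; -1.5 without library 3). Over the myogenic factors as a list, 4 of 9 tested were lower and 0 higher, with a median of -0.58; without library 3, 5 were lower and Myod1 was higher. Of 6 skeletal myoblast markers tested, a list that also holds Myog and Myod1, 2 were lower and 1, the integrin Itga7, was higher, with a median of -0.06 (2 lower, 2 higher and 0.03 without library 3).

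Of 17 sarcomere genes tested, 10 were lower and 2 higher than con in DSI+DOX, with a median log2 difference of -0.61; without library 3, 11 were lower and 2 higher, with a median of -0.94. In DOX, 12 were lower and 0 higher than con, with a median of -1.32. The summed level of the 29 sarcomere genes with an entry was 1320, 1430 and 2230 FPKM in DSI+DOX, 1270, 1180 and 1150 FPKM in DOX, and 1340, 1430 and 1350 FPKM in con. The sums of DSI+DOX overlapped those of con, with library 3 the highest. Mybph, a myosin-binding protein, had 0.71, 1.01 and 0.741 FPKM in DSI+DOX and 9.5, 11.6 and 9.0 FPKM in con (log2 difference -2.59 ± 0.12; adjusted p = 9.22e-09; -2.56 without library 3). Mylpf, the fast skeletal regulatory light chain, had 3.79, 4.55 and 5.8 FPKM in DSI+DOX and 20.8, 24.3 and 20.9 FPKM in con (-2.02 ± 0.15; adjusted p = 5.4e-07; -2.16 without library 3). Neither differed from DOX beyond the test's threshold. Acta1, skeletal alpha-actin, did: it had 4.08, 4.6 and 6.13 FPKM in DSI+DOX, 1.9, 2.25 and 1.67 FPKM in DOX, and 18.5, 21.5 and 18.1 FPKM in con. Acta1 remained 1.79 lower than con on the log2 scale (SE 0.12; adjusted p = 2.48e-07; a difference of -1.93 without library 3) while lying 1.0 above DOX (adjusted p = 0.000486; 0.86 without library 3). Tnnt2, cardiac troponin T, had 102, 108 and 195 FPKM in DSI+DOX, 88.7, 81.8 and 73.0 FPKM in DOX, and 194, 213 and 206 FPKM in con. Only library 3 reached the con range, so the log2 difference from con was -0.66 with it (adjusted p = 0.011) and -0.96 without it (adjusted p = 1.51e-07); under median scaling of all libraries it was -0.57 and did not pass (adjusted p = 0.053). The 2 sarcomere genes that were higher than con were Tpm2, a tropomyosin, by 0.55, and Tnnc1, the slow and cardiac troponin C, by 0.81, and both were called without library 3 too.

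Genes of muscle excitation and of contractile smooth muscle were mixed. Of 10 excitation-contraction and synapse genes tested, 3 were higher and 2 lower, and of 8 cardiac and hypertrophy genes 1 was higher and 1 lower, with the same counts without library 3. Cacna1s, the voltage sensor of skeletal muscle, had 1.55, 1.51 and 1.42 FPKM in DSI+DOX, 1.9, 1.89 and 1.93 FPKM in DOX, and 0.191, 0.268 and 0.303 FPKM in con (log2 difference from con 0.99 ± 0.07; adjusted p = 2.35e-07; 1.02 without library 3). Atp2a2, the sarcoplasmic reticulum calcium pump, had 84.2, 80.5 and 41.5 FPKM in DSI+DOX, 68.2, 71.1 and 77.5 FPKM in DOX, and 110, 105 and 108 FPKM in con. Library 3 was lowest there: the log2 difference from con was -0.71 with it (adjusted p = 0.0107) and -0.38 without it (adjusted p = 0.000451). Hspb7, a small heat shock protein of muscle, had 47.5, 48.6 and 55.4 FPKM in DSI+DOX, 26.8, 24.7 and 26.2 FPKM in DOX, and 77.5, 84.1 and 79.5 FPKM in con. Its groups did not overlap: it stayed 0.66 below con on the log2 scale (adjusted p = 1.15e-05; a difference of -0.73 without library 3) and lay 0.94 above DOX (adjusted p = 2.35e-05). Of 7 smooth muscle markers, 3 were lower and 1 higher than con (4 and 1 without library 3). Cnn1, smooth muscle calponin, had 37.9, 38.4 and 49.0 FPKM in DSI+DOX, 21.7, 21.8 and 25.5 FPKM in DOX, and 59.2, 57.1 and 51.4 FPKM in con, lower than con by a log2 difference of -0.42 (adjusted p = 0.00629; -0.54 without library 3) and higher than DOX by 0.83 (adjusted p = 0.000493). Under median scaling the difference of Cnn1 from con was -0.33 and did not pass (adjusted p = 0.0687). Tagln, transgelin, was the marker that rose, with 1170, 1270 and 1650 FPKM in DSI+DOX, 1040, 975 and 1020 FPKM in DOX, and 963, 993 and 930 FPKM in con (0.49 above con, adjusted p = 0.00371; 0.34 without library 3). The natriuretic peptide Nppb was listed at 0, 0.3 and 0 FPKM in DSI+DOX and at 0 in every con library, and was not tested.

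Cell division genes stayed low as a block. All 35 mitosis genes tested were lower in DSI+DOX than in con, 20 of them at least 2-fold, with a median log2 difference of -1.05; without library 3 all 35 were again lower, with a median of -1.03. In DOX all 35 were lower than con, with a median of -1.14. Ccna2, the cyclin of S and G2 phase, had 6.14, 5.66 and 3.23 FPKM in DSI+DOX, 5.36, 5.19 and 4.81 FPKM in DOX, and 20.4, 21.0 and 20.5 FPKM in con (log2 difference from con -1.89 ± 0.15; adjusted p = 9.61e-07). Top2a, the topoisomerase II of dividing cells and a target of doxorubicin, had 13.2, 11.2 and 6.92 FPKM in DSI+DOX, 10.8, 10.3 and 9.57 FPKM in DOX, and 33.1, 31.1 and 35.6 FPKM in con (-1.63 ± 0.17; adjusted p = 7.22e-06). Library 3 was the lowest DSI+DOX library for both, and without it the differences were -1.65 for Ccna2 and -1.38 for Top2a. The mitotic regulators Ccnb1 and Plk1 were closer to con than in DOX. Ccnb1, the mitotic cyclin, had 15.8, 15.3 and 12.9 FPKM in DSI+DOX, 9.0, 9.89 and 10.6 FPKM in DOX, and 40.3, 38.9 and 38.6 FPKM in con, which put it 0.53 above DOX on the log2 scale (adjusted p = 0.00704) and still 1.36 below con (SE 0.10; adjusted p = 3.77e-07; a difference of -1.28 without library 3). Plk1, the polo-like kinase of mitosis, had 12.5, 11.6 and 10.4 FPKM in DSI+DOX, 8.93, 9.17 and 9.85 FPKM in DOX, and 35.2, 34.2 and 36.3 FPKM in con (0.28 above DOX, adjusted p = 0.0436; log2 difference of -1.54 from con, adjusted p = 1.01e-08; -1.47 without library 3).

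The 250 bases upstream of gene starts were searched for the same set of motifs in the gene lists, and only some pairs of list and motif are reported. Given here for mitosis genes are the cell cycle homology element, TTTGAA, and the CCAAT box, CCAAT, the sites of the DREAM complex and of NF-Y. The promoters, searched on both strands, were the RefSeq ones of the rat build GRCr8. Of the 35 mitosis genes 27 had a promoter in that table. The cell cycle homology element was found in 12 of 27 (44.4%), against 16.2% of all 33469 promoters of that length, and the CCAAT box in 20 of 27 (74.1%), against 34.0% of all. The 33469 promoters were not limited to genes tested here. The CCAAT box was also found upstream of 14 of 14 unfolded protein response genes and of 10 of 16 p53 targets (62.5%). It was thus not particular to lists that were mostly lower. The motifs were counted separately, so a window can hold both. The upstream windows of Ncapg, a condensin subunit (chr14:69645446-69645695, minus strand), and Top2a (chr10:84473094-84473343, minus strand), the 2 called members with the largest change that hold both motifs, are printed 5′ to 3′ with the matches in capitals; ATTGG and TTCAAA are the same motifs on the other strand. In Ncapg the homology element starts 24 bases upstream of the start site, and in Top2a 22 bases.
Ncapg: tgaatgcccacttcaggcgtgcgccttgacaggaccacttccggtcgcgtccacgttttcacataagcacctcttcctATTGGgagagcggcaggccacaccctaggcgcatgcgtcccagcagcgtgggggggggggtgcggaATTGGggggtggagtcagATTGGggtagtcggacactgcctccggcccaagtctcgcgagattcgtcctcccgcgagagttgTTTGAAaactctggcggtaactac
Top2a: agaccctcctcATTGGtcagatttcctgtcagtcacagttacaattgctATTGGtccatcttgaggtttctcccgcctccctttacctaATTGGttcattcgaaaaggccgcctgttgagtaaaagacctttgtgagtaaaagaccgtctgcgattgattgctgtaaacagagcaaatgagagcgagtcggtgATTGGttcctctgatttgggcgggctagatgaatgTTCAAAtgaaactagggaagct

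DNA replication genes were lower too. Of 36 tested, 33 were lower in DSI+DOX than in con and 0 higher, 18 of the 33 at least 2-fold, with a median of -1.0 (33 lower and -1.02 without library 3). In DOX, 33 were lower and 2 higher than con, with a median of -0.96. Mcm6, a subunit of the replicative helicase, had 10.5, 10.3 and 10.7 FPKM in DSI+DOX, 10.5, 10.3 and 11.6 FPKM in DOX, and 43.3, 43.2 and 42.3 FPKM in con. The DSI+DOX libraries overlapped DOX and stayed 1.94 below con on the log2 scale (SE 0.07; adjusted p = 1.08e-09). Mcm5, a further helicase subunit, had 5.81, 7.54 and 6.28 FPKM in DSI+DOX, 7.61, 7.32 and 8.5 FPKM in DOX, and 25.1, 25.6 and 24.1 FPKM in con (-1.79 ± 0.09; adjusted p = 1.58e-08). Cdc6, which loads the helicase at origins, had 1.45, 1.57 and 1.1 FPKM in DSI+DOX and 7.57, 7.17 and 7.06 FPKM in con (-1.81 ± 0.11; adjusted p = 9.98e-08). Without library 3 the differences from con were -1.95 for Mcm6, -1.77 for Mcm5 and -1.72 for Cdc6. The 3 genes of the list that did not pass were Tyms (-0.29), Gins2 (0.01) and Rfc4 (0.22). Pclaf, which binds the sliding clamp PCNA, was also among the 8 largest falls, with a log2 difference of -1.90 ± 0.14 (adjusted p = 3.18e-07; -1.96 without library 3). The E2F motif TTTCCCGC was found in the upstream windows of 3 of 27 replication genes with a promoter (11.1%), against 0.813% of all promoters. It was also found upstream of 3 of 20 ribosome biogenesis genes, a list with 5 higher and 2 lower of 22. Upstream of the mitosis genes, which were all lower, it was found in 0 of 27. The motif was thus not particular to lists that were mostly lower. The windows of Mcm5 (chr19:13488563-13488812, plus strand) and Mcm7 (chr12:22163179-22163428, minus strand) are printed 5′ to 3′ with this motif or its reverse complement in capitals. Mcm7, another helicase subunit, was lower by a log2 difference of -0.97. The motif starts 8 bases upstream of the start site in Mcm5.
Mcm5: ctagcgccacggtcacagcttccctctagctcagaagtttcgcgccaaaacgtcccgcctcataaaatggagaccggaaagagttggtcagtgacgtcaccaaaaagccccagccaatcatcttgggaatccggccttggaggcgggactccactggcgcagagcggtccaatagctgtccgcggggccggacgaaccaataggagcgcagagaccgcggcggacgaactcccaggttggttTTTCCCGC
Mcm7: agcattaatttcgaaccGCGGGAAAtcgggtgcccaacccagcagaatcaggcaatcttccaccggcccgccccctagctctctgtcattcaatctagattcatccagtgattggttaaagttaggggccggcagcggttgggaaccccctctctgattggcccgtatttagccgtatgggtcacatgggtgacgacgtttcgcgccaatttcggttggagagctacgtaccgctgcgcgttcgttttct

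Repair genes that act at replication forks were lower as well. Of 23 homologous recombination and Fanconi genes tested, 20 were lower and 1, Rad52, was higher, with a median of -0.73 (17 lower, 1 higher and -0.64 without library 3). In DOX 14 were lower and 1 higher, with a median of -0.57. Exo1, an exonuclease, and Fancd2, a Fanconi protein, were lower than con by log2 differences of -1.68 and -1.28 (-1.56 and -1.22 without library 3). Of 13 topoisomerase and adduct repair genes, 4 were lower and 1 higher (5 and 2 without library 3). The kinase Atm, which signals DNA breaks, had 2.26, 1.81 and 0.728 FPKM in DSI+DOX, 1.78, 1.91 and 2.05 FPKM in DOX, and 4.4, 3.85 and 4.61 FPKM in con. Its difference from con was -1.07 with library 3 and -0.80 without it (adjusted p = 0.000563 and 8.46e-05). In this list the median member of library 3 lay 0.66 below the mean of libraries 1 and 2 on the log2 scale, and the part of library 3 in these falls was not tested beyond leaving it out.

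**Figure D2:**
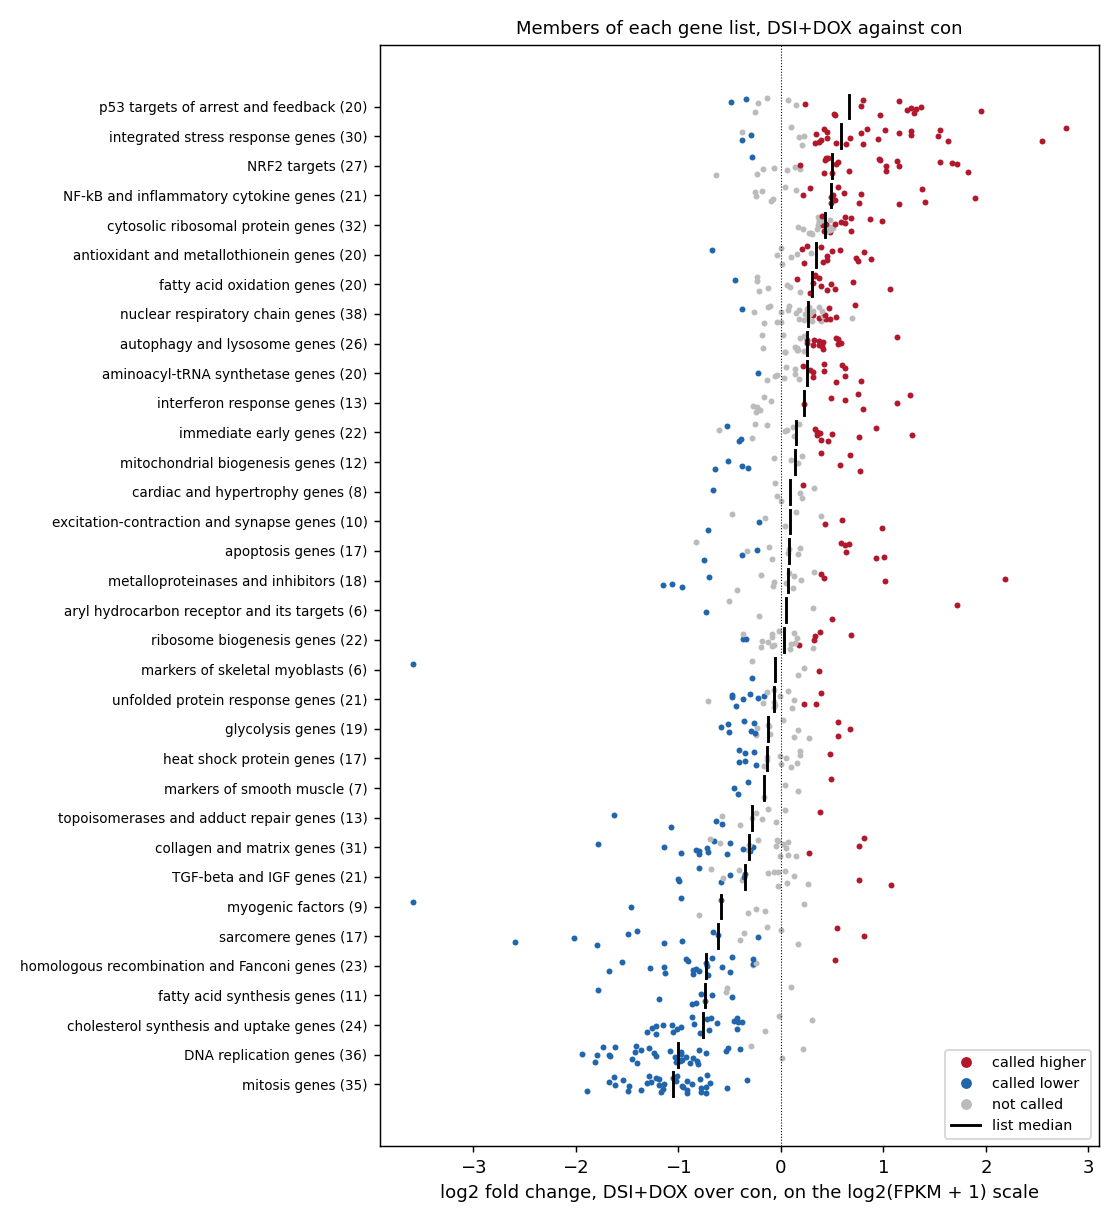
Log2 difference of DSI+DOX from con on the log2(FPKM + 1) scale, with a point per tested gene, a row per gene list (number tested in brackets) and a black line at the list's median; red points were called higher, blue points lower, and grey points did not pass. Mitosis genes, with a median of -1.05, hold blue points only, and integrated stress response genes reach 2.78.

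Targets of p53 stayed high. Of 20 p53 targets of arrest and feedback tested, 13 were higher in DSI+DOX than in con, 7 of them at least 2-fold, and 2 were lower, with a median of 0.66 (15 higher, 2 lower and 0.77 without library 3). In DOX 14 were higher and 1 lower, with a median of 0.99. Cdkn1a, the p21 inhibitor of cyclin-dependent kinases, had 265, 279 and 277 FPKM in DSI+DOX, 298, 281 and 290 FPKM in DOX, and 111, 113 and 108 FPKM in con. It was 1.30 ± 0.06 above con on the log2 scale (adjusted p = 8.3e-09), and its difference of -0.08 from DOX did not pass. Other targets were lower than in DOX. Gadd45a, a stress sensor of growth arrest, had 97.9, 98.8 and 113 FPKM in DSI+DOX, 168, 153 and 133 FPKM in DOX, and 24.7, 24.5 and 28.9 FPKM in con, 1.95 ± 0.09 above con (adjusted p = 8.3e-09) with a difference of -0.54 from DOX (adjusted p = 0.00349). Mdm2, the ubiquitin ligase that degrades p53, had 194, 181 and 144 FPKM in DSI+DOX, 263, 253 and 228 FPKM in DOX, and 66.9, 69.8 and 68.7 FPKM in con, 1.32 ± 0.09 above con (adjusted p = 3.03e-07) with a difference of -0.53 from DOX (adjusted p = 0.00503). Plk2, a kinase induced by p53, had 76.0, 71.9 and 63.3 FPKM in DSI+DOX, 107, 108 and 108 FPKM in DOX, and 26.8, 26.0 and 26.8 FPKM in con. Plk2 was 1.37 ± 0.06 above con (adjusted p = 8.34e-09), and below every DOX library. Without library 3 the differences from con were 1.29 for Cdkn1a, 1.88 for Gadd45a and 1.44 for Mdm2 and Plk2. Library 3 was the lowest DSI+DOX library for Mdm2 and Plk2 and the highest for Gadd45a. The 2 targets that were lower than con were Sesn1 (-0.49), a sestrin, and Xpc (-0.34), a nucleotide excision repair protein.

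Apoptosis genes were less uniform. Of 17 tested, 6 were higher and 3 lower than con, with a median of 0.08, against 8 higher and 1 lower without library 3; Bcl2l11, which promotes cell death, was called lower only with it (-0.38). Bcl2l1, which encodes the survival protein Bcl-xL, had 50.6, 54.4 and 53.8 FPKM in DSI+DOX, 57.0, 55.1 and 56.1 FPKM in DOX, and 25.1, 28.2 and 24.1 FPKM in con (log2 difference from con 1.01 ± 0.06; adjusted p = 1.06e-07; 1.0 without library 3). Bax, its pro-death relative, had 97.8, 109 and 163 FPKM in DSI+DOX, 127, 122 and 118 FPKM in DOX, and 59.6, 65.8 and 62.0 FPKM in con. Library 3 was the highest for Bax: the difference from con was 0.93 with it (adjusted p = 0.000205) and 0.72 without it (adjusted p = 3.52e-06). Apaf1, the scaffold of the apoptosome, had 7.84, 7.0 and 2.48 FPKM in DSI+DOX and 10.1, 8.99 and 9.58 FPKM in con, a difference of -0.75 with library 3 (adjusted p = 0.0278) and -0.33 without it (adjusted p = 0.00613). Its call with all DSI+DOX libraries was lost without any one of con libraries 1, 2 and 3 (adjusted p = 0.0771, 0.0515 and 0.0705).

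Integrated stress response genes stayed high, and Trib3 was the largest rise of any list. The genes are targets of the transcription factor Atf4 and its partners, which supply amino acids and, through Ddit3, favour cell death. Of 30 tested, 23 were higher in DSI+DOX than in con, 9 of them at least 2-fold, and 2 were lower, with a median of 0.59 (23 higher, 1 lower and 0.62 without library 3). In DOX 24 were higher and 0 lower, with a median of 0.93. Trib3, a pseudokinase induced by Ddit3 and Atf4, had 42.8, 42.2 and 50.8 FPKM in DSI+DOX, 60.6, 60.5 and 64.3 FPKM in DOX, and 5.37, 6.45 and 5.37 FPKM in con. It lay below every DOX library and far above con, with log2 differences of 2.78 ± 0.09 from con (adjusted p = 3.49e-10) and -0.44 from DOX (adjusted p = 0.00951), and 2.7 and -0.53 without library 3. Ddit3, the factor CHOP, had 71.6, 74.2 and 129 FPKM in DSI+DOX, 124, 112 and 99.4 FPKM in DOX, and 15.3, 13.0 and 14.7 FPKM in con. Only its library 3 reached the DOX range, so its difference of -0.33 from DOX did not pass with that library (adjusted p = 0.23) and was -0.61 without it (adjusted p = 0.000831), while the difference from con was 2.55 and 2.27. Chac1, which degrades glutathione, had 28.7, 30.4 and 28.0 FPKM in DSI+DOX, 42.7, 41.3 and 42.4 FPKM in DOX, and 10.0, 8.4 and 7.83 FPKM in con (1.63 ± 0.08 from con; adjusted p = 9.93e-09; 1.65 without library 3). Slc7a11, the cystine transporter, had 11.7, 10.6 and 3.7 FPKM in DSI+DOX, 15.2, 15.9 and 16.3 FPKM in DOX, and 2.01, 2.05 and 1.99 FPKM in con. Its rise was 1.55 with library 3 (adjusted p = 0.0007) and 2.00 without it. Atf3, at 0.652, 0.897 and 1.3 FPKM in DSI+DOX and 0.11, 0.227 and 0.125 FPKM in con, and Gdf15, at 0.959, 1.12 and 1.42 FPKM in DSI+DOX and 0.198, 0.0845 and 0.222 FPKM in con, were below the minimum and were not tested. Psat1, of serine synthesis, was lower than con by a log2 difference of -0.29, and Eif2ak3, an upstream kinase, by -0.38 with library 3 only.

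The motif TGATGNAA, the C/EBP-ATF response element, was found upstream of 6 of 27 integrated stress response genes with a promoter (22.2%), against 3.4% of all promoters, and upstream of 4 of 13 aminoacyl-tRNA synthetase genes (30.8%). The windows of Trib3 (chr3:161275534-161275783, minus strand) and Chac1 (chr3:126795881-126796130, plus strand), the 2 called members with the largest change that hold it, are printed 5′ to 3′ with the motif, here on the other strand, in capitals; it starts 21 bases upstream of the start site in Trib3 and 167 bases in Chac1.
Trib3: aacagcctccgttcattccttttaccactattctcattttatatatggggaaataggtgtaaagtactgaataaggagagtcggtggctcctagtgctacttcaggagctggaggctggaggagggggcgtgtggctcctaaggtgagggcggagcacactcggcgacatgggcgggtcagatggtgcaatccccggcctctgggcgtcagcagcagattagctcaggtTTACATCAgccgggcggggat
Chac1: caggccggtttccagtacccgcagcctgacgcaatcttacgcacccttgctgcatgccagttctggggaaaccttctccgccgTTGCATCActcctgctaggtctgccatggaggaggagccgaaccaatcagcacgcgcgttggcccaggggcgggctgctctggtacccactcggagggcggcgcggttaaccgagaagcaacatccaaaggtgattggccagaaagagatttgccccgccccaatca

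Aminoacyl-tRNA synthetases, which charge tRNAs, were higher in part. Of 20 tested, 11 were higher and 1 lower, with a median of 0.25 (11 higher, 0 lower and 0.26 without library 3), and in DOX 15 were higher and 0 lower, with a median of 0.51. The cysteine enzyme Cars had 57.8, 61.3 and 67.9 FPKM in DSI+DOX, 81.1, 83.3 and 84.4 FPKM in DOX, and 35.2, 36.4 and 35.8 FPKM in con. It lay between the other groups with no overlap, 0.78 ± 0.06 above con (adjusted p = 6.81e-07; 0.72 without library 3) and with a difference of -0.41 from DOX (adjusted p = 0.0017).

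Inflammatory genes stayed above control. Of 21 NF-kB and cytokine genes tested, 14 were higher and 0 lower than con, with a median of 0.49 (14, 0 and 0.56 without library 3), and in DOX 15 were higher, with a median of 0.92. Il1a, Il1b and Cxcl2 were listed at 0 in all DSI+DOX and con libraries. Interleukin 6, Il6, had 14.4, 10.6 and 12.5 FPKM in DSI+DOX, 20.6, 17.0 and 13.7 FPKM in DOX, and 3.21, 2.23 and 2.48 FPKM in con, 1.89 ± 0.15 above con (adjusted p = 6.44e-07), and its DSI+DOX libraries overlapped DOX. The neutrophil chemokine Cxcl1 had 9.43, 11.2 and 9.86 FPKM in DSI+DOX, 15.7, 16.1 and 14.0 FPKM in DOX, and 3.36, 3.63 and 2.67 FPKM in con (1.41 ± 0.10 from con; -0.55 from DOX, adjusted p = 0.00698). The monocyte chemokine Ccl2 had 4.81, 3.88 and 5.69 FPKM in DSI+DOX, 8.39, 7.49 and 6.77 FPKM in DOX, and 1.32, 1.66 and 1.83 FPKM in con (1.15 ± 0.14 from con; -0.57 from DOX, adjusted p = 0.0262). Both chemokines thus kept to a middle position, above every con library and below every DOX library. Without library 3 the differences from con were 1.89 for Il6, 1.43 for Cxcl1 and 1.04 for Ccl2. Of 13 interferon response genes, 7 were higher and 0 lower with and without library 3, with a median of 0.23 (0.21 without it, and 0.64 in DOX). Tap1, the peptide transporter of antigen presentation, had 17.0, 17.0 and 17.6 FPKM in DSI+DOX, 24.8, 27.1 and 28.2 FPKM in DOX, and 6.78, 6.36 and 6.59 FPKM in con (1.26 ± 0.07 from con, and 1.25 without library 3; -0.60 from DOX, adjusted p = 0.000277). Irf7, a transcription factor of the interferon response, had 12.9, 13.5 and 15.3 FPKM in DSI+DOX, 22.9, 21.8 and 23.5 FPKM in DOX, and 5.9, 6.33 and 5.21 FPKM in con (1.13 ± 0.10 from con, adjusted p = 2.03e-06; 1.07 without library 3). Immediate early genes were mixed: 10 of 22 were higher and 3 lower (12 and 3 without library 3), with Ier3 (1.28), Myc (0.93) and Fosl1 (0.76) highest and Nr4a3 (-0.53), Dusp1 (-0.41) and Egr1 (-0.39) the lower ones.

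Antioxidant genes were high in DSI+DOX. Of 27 targets of NRF2, the regulator of detoxification and glutathione synthesis, 19 were higher and 1, Ugdh, lower, with a median of 0.50 (18 higher, 2 lower and 0.42 without library 3). In DOX 15 were higher and 4 lower, with a median of 0.39. Ephx1, an epoxide hydrolase, had 74.5, 71.2 and 80.2 FPKM in DSI+DOX, 79.4, 78.4 and 81.5 FPKM in DOX, and 20.9, 21.4 and 18.9 FPKM in con (1.83 ± 0.06 from con; adjusted p = 6.42e-10; 1.79 without library 3). Nqo1, a quinone reductase, had 50.2, 54.8 and 59.2 FPKM in DSI+DOX, 39.4, 37.5 and 39.9 FPKM in DOX, and 15.8, 16.8 and 15.1 FPKM in con. Here DSI+DOX lay above both groups, by 1.72 ± 0.07 over con (adjusted p = 3.51e-09; 1.66 without library 3) and by 0.48 over DOX (adjusted p = 0.0019; 0.42 without library 3). Hmox1, heme oxygenase, had 100, 102 and 101 FPKM in DSI+DOX, 122, 113 and 119 FPKM in DOX, and 47.1, 44.8 and 43.6 FPKM in con (1.15 ± 0.06 from con, and 1.15 without library 3; -0.22 from DOX, adjusted p = 0.0479). Of 20 antioxidant and metallothionein genes 13 were higher and 1, Selenop, lower (10 higher and 2 lower without library 3). The glutathione peroxidases Gpx1 and Gpx4 were highest in library 3: Gpx4, which protects lipids, had 121, 141 and 237 FPKM in DSI+DOX, 151, 134 and 142 FPKM in DOX, and 94.2, 105 and 88.0 FPKM in con, a rise of 0.73 with that library (adjusted p = 0.00646) and 0.45 without it (adjusted p = 0.00149). Of 6 aryl hydrocarbon receptor genes, 2 were higher and 1 lower (3 and 1 without library 3). Cyp1b1, a cytochrome P450 that this receptor induces, had 59.8, 55.6 and 33.8 FPKM in DSI+DOX, 40.1, 39.8 and 38.9 FPKM in DOX, and 39.5, 37.8 and 38.8 FPKM in con. Libraries 1 and 2 lay above, and library 3 below, all DOX and con libraries, so Cyp1b1 passed only without library 3. Its difference was then 0.56 over con (adjusted p = 1.14e-05, against adjusted p = 0.112 with library 3). Over DOX it was 0.53 (adjusted p = 0.000181, against adjusted p = 0.245 with library 3).

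Lipid synthesis genes stayed low. Of 24 genes of cholesterol synthesis and uptake, 21 were lower and 0 higher, with a median of -0.76 (22 lower and -0.66 without library 3), and in DOX 22 were lower, with a median of -0.87. Hmgcs1, which makes the precursor of the pathway, had 35.8, 35.7 and 23.9 FPKM in DSI+DOX, 31.3, 32.2 and 30.0 FPKM in DOX, and 75.2, 76.0 and 78.2 FPKM in con (-1.26 ± 0.12 from con; adjusted p = 3.24e-06). Its DSI+DOX libraries straddled DOX and lay below con. Without library 3 the difference was -1.08. The CCAAT box was found upstream of 14 of 17 of these genes with a promoter (82.4%), against 34.0% of all promoters. It was also found upstream of 14 of 14 unfolded protein response genes and of 10 of 16 p53 targets (62.5%), lists that were not mostly lower. The sterol regulatory element, searched as CACCCCAC on both strands, was found upstream of 1 of the 17 (5.88%), against 2.32% of all promoters. Of 11 fatty acid synthesis genes, 8 were lower and 0 higher, with a median of -0.74 (8, 0 and -0.53 without library 3). Scd, the desaturase that makes oleate, had 2.9, 2.93 and 1.61 FPKM in DSI+DOX, 2.72, 2.91 and 3.31 FPKM in DOX, and 10.4, 11.2 and 10.6 FPKM in con (-1.78 ± 0.13; adjusted p = 3.77e-07; -1.58 without library 3).

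Fatty acid oxidation genes moved the other way. Of 20 tested, 12 were higher and 1, Hadh, lower than con in DSI+DOX, with a median of 0.30; without library 3, 9 were higher and 2 lower, with a median of 0.18. In DOX 3 were higher and 2 lower, with a median of 0.03. Angptl4, a secreted inhibitor of lipoprotein lipase, had 3.54, 3.65 and 5.55 FPKM in DSI+DOX, 1.83, 1.75 and 2.21 FPKM in DOX, and 0.999, 1.74 and 1.77 FPKM in con. The DSI+DOX libraries lay above all others, by 1.06 ± 0.16 over con (adjusted p = 0.000188; 0.89 without library 3) and by 0.82 over DOX (adjusted p = 0.00772; 0.65 without library 3), and DOX did not differ from con beyond the threshold (0.24; adjusted p = 0.264). Etfb, of the electron transfer flavoprotein, had 63.8, 68.9 and 118 FPKM in DSI+DOX and 48.5, 50.1 and 48.3 FPKM in con, a rise of 0.70 with library 3 and 0.43 without it.

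The levels of ribosomal and respiratory chain genes moved with library 3. Of 32 cytosolic ribosomal protein genes, 13 were higher and 0 lower, with a median of 0.43; without library 3, 10 were higher and the median was 0.17. The median member lay 0.80 higher in library 3 than in the mean of libraries 1 and 2. Rps19 had 924, 865 and 1610 FPKM in DSI+DOX, 848, 629 and 711 FPKM in DOX, and 565, 536 and 543 FPKM in con (0.99 ± 0.20, adjusted p = 0.00183; 0.71 without library 3, adjusted p = 0.000511). Of 38 nuclear genes of the respiratory chain, 8 were higher and 1 lower, a smaller share than the 42.2% of all genes, with a median of 0.26; without library 3, 3 were higher and 3 lower, with a median of 0.07. Ndufa2, a complex I subunit, had 36.9, 39.3 and 75.3 FPKM in DSI+DOX and 30.7, 35.1 and 32.4 FPKM in con, a difference of 0.54 that passed with library 3 (adjusted p = 0.0436) and was 0.21 without it (adjusted p = 0.0726); the call was also lost without any one of con libraries 1, 2 and 3 (adjusted p = 0.117, 0.0644 and 0.1). Ribosome biogenesis genes, which make and process ribosomal RNA, gave 5 higher and 2 lower of 22 with and without library 3.

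**Figure D3:**
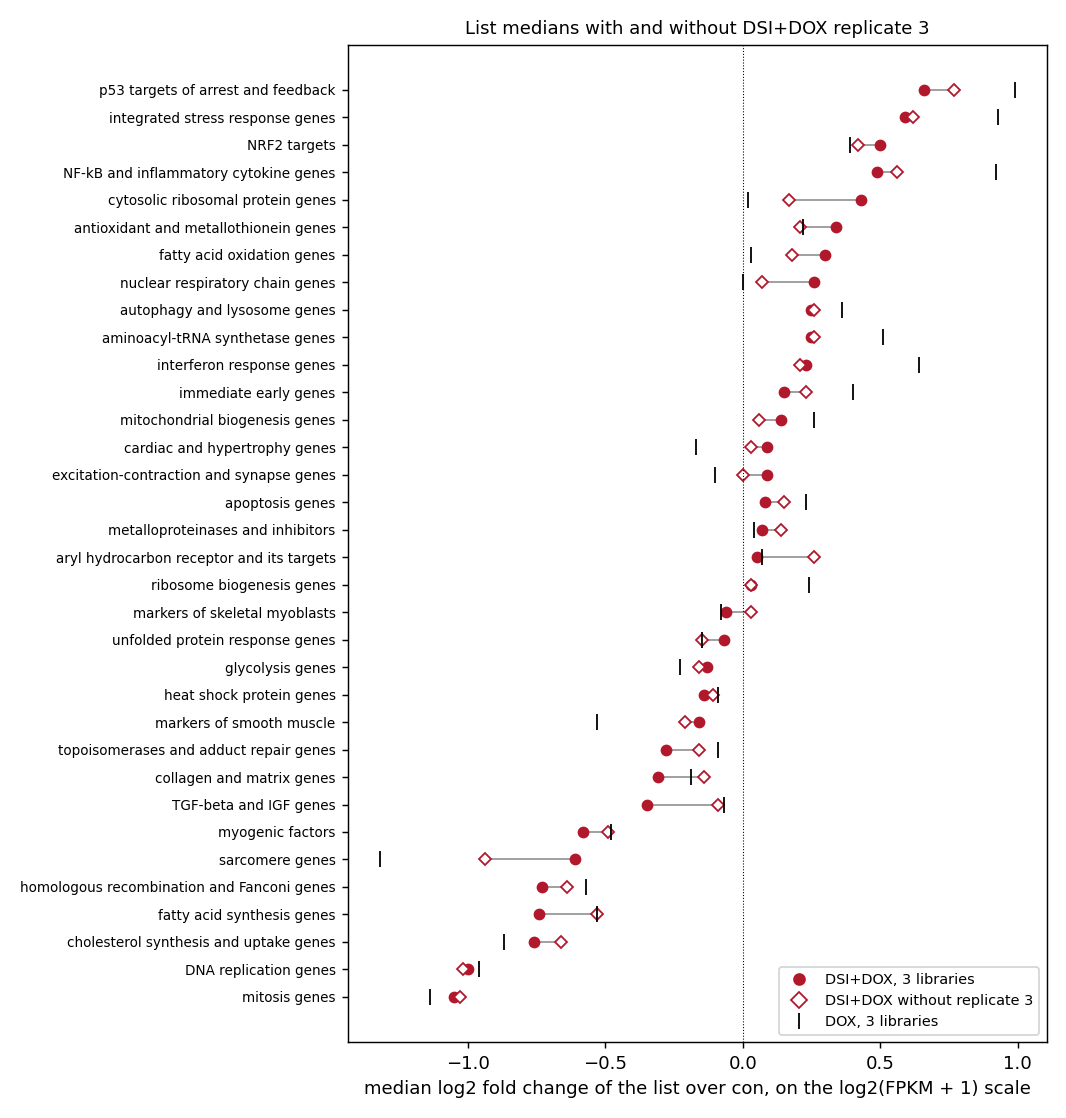
Median log2 difference from con of each gene list on the log2(FPKM + 1) scale, for DSI+DOX with 3 libraries (filled circles), DSI+DOX without library 3 (open diamonds) and DOX (black ticks). The circle and diamond lie apart for ribosomal protein genes (0.43 and 0.17) and sarcomere genes (-0.61 and -0.94), and close together for mitosis genes (-1.05 and -1.03).

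Matrix genes were lower in part. Of 31 collagen and matrix genes, 14 were lower and 3 higher, with a median of -0.31; without library 3, 12 were lower and 6 higher, with a median of -0.14. Lox, lysyl oxidase, which cross-links collagen, had 32.3, 31.1 and 18.7 FPKM in DSI+DOX, 31.0, 28.6 and 28.6 FPKM in DOX, and 95.7, 89.3 and 96.5 FPKM in con (-1.78 ± 0.15; adjusted p = 1.54e-06; -1.54 without library 3). Col1a1, of type I collagen, had 1730, 1680 and 1410 FPKM in DSI+DOX, 1460, 1550 and 1740 FPKM in DOX, and 3210, 3120 and 3100 FPKM in con (-0.97 ± 0.09; adjusted p = 4.25e-06; -0.88 without library 3). Both stayed below every con library and overlapped or straddled DOX. The gelatinase Mmp2 went the other way, with 6.08, 5.58 and 5.12 FPKM in DSI+DOX, 5.11, 5.27 and 5.51 FPKM in DOX, and 0.451, 0.367 and 0.504 FPKM in con (2.19 ± 0.08; adjusted p = 1.08e-09; 2.25 without library 3). Over 18 metalloproteinases and inhibitors 4 were higher and 4 lower (5 and 4 without library 3). Of 21 TGF-beta and IGF genes, 7 were lower and 2 higher (7 and 4 without library 3). Igf2, a growth factor, had 3.76, 4.32 and 4.1 FPKM in DSI+DOX and 9.28, 9.28 and 8.6 FPKM in con (-0.99 ± 0.08; adjusted p = 7.62e-07; -1.0 without library 3). Id1, an inhibitor of myogenic factors, had 39.5, 43.9 and 63.9 FPKM in DSI+DOX and 23.4, 22.5 and 21.5 FPKM in con (1.07 ± 0.14; adjusted p = 6.85e-05; 0.86 without library 3).

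Of 26 autophagy and lysosome genes, 14 were higher and 0 lower, with a median of 0.25 (16, 0 and 0.26 without library 3). The autophagy receptor Sqstm1, an NRF2 target as well, was at 419, 437 and 419 FPKM in DSI+DOX, 542, 518 and 544 FPKM in DOX, and 194, 199 and 186 FPKM in con. Its DSI+DOX libraries lay between the other groups with no overlap, 1.13 ± 0.06 above con (adjusted p = 1.96e-08; 1.14 without library 3).

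Some genes in DSI+DOX lay above both con and DOX, or below both. DOX itself could lie on either side of con for these genes. They were named by the largest difference between DSI+DOX and DOX among genes called in both comparisons, so these differences are a description. Among the higher ones, Glrx, a glutaredoxin, had 51.6, 55.7 and 60.2 FPKM in DSI+DOX, 38.8, 38.6 and 34.1 FPKM in DOX, and 45.9, 48.6 and 47.3 FPKM in con, and was the single gene of the 5 named that stayed called against con without library 3 (0.18; adjusted p = 0.0298). Glrx lost the call without con library 1 (0.21; adjusted p = 0.0601). Acaa2, a thiolase of fatty acid oxidation, had 54.0, 58.9 and 71.9 FPKM in DSI+DOX, 40.2, 38.9 and 40.2 FPKM in DOX, and 49.6, 53.5 and 47.3 FPKM in con. DOX lay below con and DSI+DOX above it for both genes. Without library 3 the difference of Acaa2 from con was 0.17 (adjusted p = 0.0765), and Pcbd2, Myl9 and RGD1563861 also lost the call (adjusted p = 0.0714, 0.083 and 0.113).

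**Figure D4:**
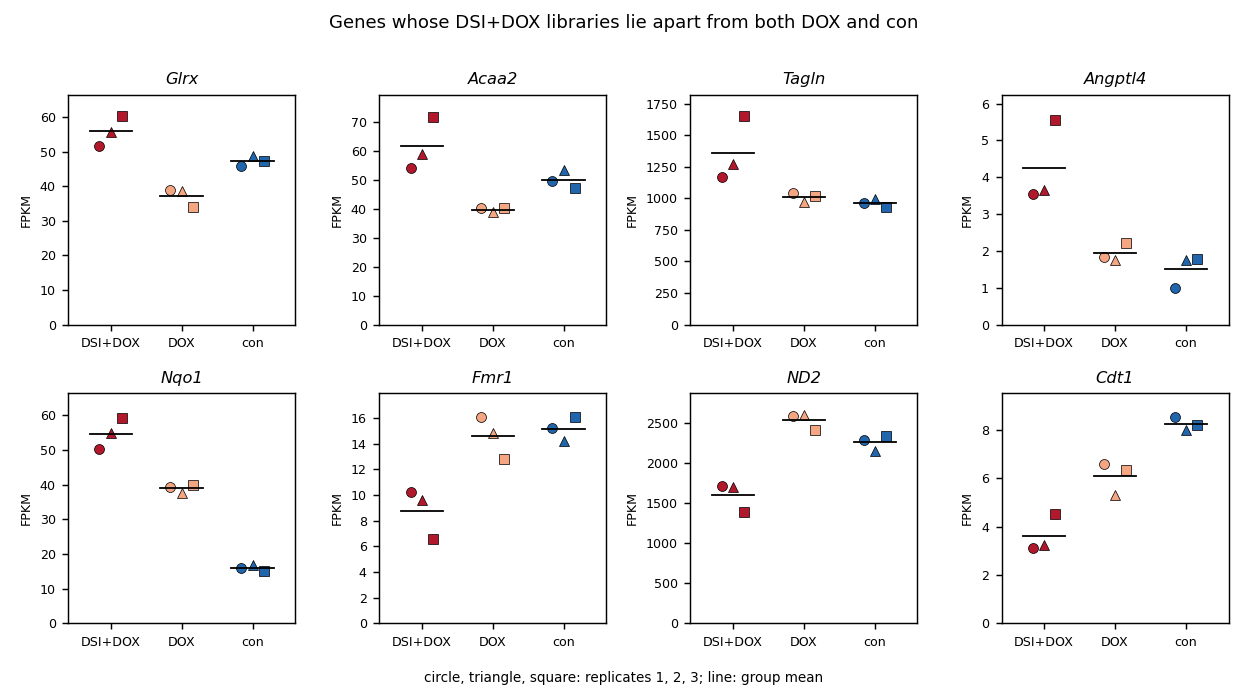
Level in FPKM of 8 genes in DSI+DOX, DOX and con, with a point per library (circle, triangle and square for libraries 1, 2 and 3) and a line at each group's mean; each axis starts at 0. The DSI+DOX libraries of Glrx, Acaa2, Tagln, Angptl4 and Nqo1 lie above, and those of Fmr1, ND2 and Cdt1 below, all DOX and con libraries.

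The genes named on the low side were called against con with and without library 3. Fmr1, an RNA-binding protein, had 10.2, 9.58 and 6.54 FPKM in DSI+DOX, 16.1, 14.8 and 12.8 FPKM in DOX, and 15.2, 14.2 and 16.1 FPKM in con. Cdt1, which licenses replication origins with Cdc6, had 3.12, 3.22 and 4.51 FPKM in DSI+DOX, 6.61, 5.3 and 6.33 FPKM in DOX, and 8.54, 8.02 and 8.22 FPKM in con. ND2, a complex I subunit encoded by mitochondrial DNA, had 1710, 1700 and 1390 FPKM in DSI+DOX, 2590, 2600 and 2420 FPKM in DOX, and 2290, 2160 and 2340 FPKM in con. Log2 differences from con were -0.75 for Fmr1, -1.02 for Cdt1 and -0.51 for ND2, and -0.57, -1.15 and -0.41 without library 3. Espl1, the separase of anaphase, and Efnb2, a membrane-bound ephrin ligand, had log2 differences of -0.54 and -0.50 from con, and of -0.35 and -0.22 without library 3. Efnb2 lost its call without any one of con libraries 1, 2 and 3 (adjusted p = 0.0775, 0.0588 and 0.078). With the 6 DSI+DOX and con libraries alone, ND2, Espl1 and Efnb2 lost the call (adjusted p = 0.0516, 0.0907 and 0.186). Most other protein genes of the mitochondrial genome did not pass. Of its 13 protein genes, 2 were called lower, 0 higher and 11 did not pass, with differences of -0.29 to 0.34; the other gene called, ND4L, passed only with library 3 (-0.53, adjusted p = 0.0443, and -0.24, adjusted p = 0.114, without it), while CYTB and COX1 passed as higher only without it (0.22 and 0.27).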

How the data were processed

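RNA from H9c2 cells was sequenced in 15 libraries, 3 per group. The authors deposited 1 table of FPKM values, according to its header. Per the submitters' processing notes the tools were Trimmomatic, HISAT2 and featureCounts, with no versions, on the rat build Rnor_6.0; how FPKM were derived from counts is not given in the sources used here. FPKM divides by the library total, so a library in which a few abundant genes take more reads has lower values elsewhere. Of 19344 entries, 16 exact duplicates were removed. The rest held 446 entries sharing 204 symbols and 1315 without a symbol. These were left out of lists and names, and those that met the FPKM minimum were tested. Of the 10974 genes tested, 10324 had a symbol on 1 entry. Columns were matched to samples by name.

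Values were taken to log2(FPKM + 1) for genes at 1 FPKM or more in at least 3 of 6 libraries. Group means over all 15 libraries were fitted in limma 3.58.1 (R 4.3.3) with a trend on intensity, two-sided tests (10 residual degrees of freedom) and Benjamini-Hochberg adjustment over 10974 genes. The labels state no test. Gene lists are described by counts and medians, with no set test. Named genes were the 8 largest rises and falls called with and without DSI+DOX library 3. These had 5 FPKM or more in the higher group and did not overlap. Also named were the 3 most changed called members of each list and a fixed set. The last were the 5 genes on each side with the largest difference from DOX, among those above both DOX and con or below both. List members that moved against their list, ND4L, CYTB and COX1, and Mcm7 with its promoter motif were named after their values were seen. The members and lists were chosen with earlier results of these data known. Some genes stand on more than 1 list, among them Slc7a11, Sqstm1, Nqo1, Top2a, Myog, Myod1 and Des. Sesn2 and Gdf15 are on both the p53 and the integrated stress response lists, so the lists are not independent. Top2b is not analysed here. Promoters are from RefSeq (GRCr8), a build other than that of the files, and were matched by symbol. Alternatives were the pseudocount, filter, scaling, sample set, trend, array weights, replicate block and leaving out each library; the fits without DSI+DOX library 3 on 6 libraries and with median scaling were added after seeing the data. Python 3.11.15, pandas 2.3.3, numpy 2.4.6 and matplotlib 3.10.9 were used.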

Additional observations from a re-analysis of the deposited data

How the results depend on the processing

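The number of genes that differed between DSI+DOX and con was 4631, 2228 higher and 2403 lower. With the 6 DSI+DOX and con libraries alone, 1566 genes passed (822 higher and 744 lower); on the same libraries without DSI+DOX library 3, an alternative chosen after seeing the data, 4982 passed. With array weights 8351 passed (4206 higher and 4145 lower); that fit did not converge and gave DSI+DOX library 2 a weight of 45.79 and library 3 a weight of 0.01068. Requiring a 2-fold difference left 399 (136 higher and 263 lower). Leaving out each DSI+DOX or con library in turn gave 3105 to 6203 genes in all, 1559 to 2740 higher and 1546 to 3463 lower. The lowest count of lower genes, 1546, came without con library 3. The cause of these shifts was not tested. The other alternatives gave counts within 1.5 times of those reported. Median scaling moved the median of all genes to 0.05, against -0.05 as reported, and gave 2674 higher and 2069 lower genes; quantile normalization gave 2586 and 2446. No named gene changed direction under any alternative. With 6 libraries alone, 39 of the named genes lost the call. Among the 39 were Tnnt2, Atp2a2, Apaf1 and Gpx4 (limma adjusted p = 0.12, 0.12, 0.18 and 0.0943). Tagln, Etfb, Pfkfb3 and Hsph1 were also among them (limma adjusted p = 0.0808, 0.0883, 0.105 and 0.109). The call was lost by 17, 11 and 17 named genes without con library 1, 2 and 3. It was lost by 9 and 2 without DSI+DOX library 3 and 2, and by 6 under median scaling. Whether replicate numbers pair the libraries could not be decided. The same-number correlations of deviations from group means were 0.0406, -0.318 and -0.33, and no DSI+DOX library correlated best with the con library of its own number. Deviations cancel out within a group and library 3 stood apart, so these correlations are not independent and cannot exclude a pairing. With the number as a replicate block, 4158 genes passed (2032 higher and 2126 lower), and 7 named genes lost the call. Read depth is unknown, so no counting error can be given for low genes, and 3 libraries a group limit the precision.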

Other observations

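Several further gene groups had members on both sides of control in DSI+DOX. Of 21 unfolded protein response genes tested, 7 were lower and 3 higher than con, with a median log2 difference of -0.07 (-0.15 without library 3, and 0.02 under median scaling). Pdia4, a disulfide isomerase of the endoplasmic reticulum, had 154, 153 and 134 FPKM in DSI+DOX, 130, 130 and 129 FPKM in DOX, and 203, 206 and 206 FPKM in con (-0.48 ± 0.06; limma adjusted p = 3.87e-05). Of 17 heat shock protein genes, 6 were lower and 1, Hspb2, was higher, and without library 3 the count was 6 lower and 0 higher; Hspb2 also lost its call under median scaling (0.57; limma adjusted p = 0.051). Hsph1, a large chaperone, had 64.9, 64.4 and 45.6 FPKM in DSI+DOX, 66.9, 69.5 and 70.3 FPKM in DOX, and 78.9, 74.8 and 77.2 FPKM in con.

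Of 19 glycolysis genes, 7 were lower and 3 higher, and 11 were lower and 3 higher without library 3. Pfkm, the muscle phosphofructokinase, had 38.0, 39.6 and 39.0 FPKM in DSI+DOX, 25.0, 26.5 and 29.0 FPKM in DOX, and 59.3, 58.8 and 57.6 FPKM in con. Its 3 groups did not overlap, with log2 differences of -0.58 from con (limma adjusted p = 8.96e-06) and 0.52 from DOX (limma adjusted p = 0.000344). Pfkfb3, which makes an activator of phosphofructokinase, had 17.0, 16.8 and 9.06 FPKM in DSI+DOX, 17.0, 19.3 and 19.1 FPKM in DOX, and 8.19, 8.41 and 8.28 FPKM in con, 0.67 above con with library 3 and 0.95 without it. Of 12 mitochondrial biogenesis genes, 4 were higher and 4 lower. Esrra, an orphan nuclear receptor of mitochondrial genes, had 37.3, 39.5 and 50.8 FPKM in DSI+DOX, 55.3, 52.3 and 58.7 FPKM in DOX, and 23.3, 27.6 and 22.1 FPKM in con (0.77 ± 0.12; limma adjusted p = 0.000217).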
